A study of Homo sapiens with 2 samples.

Results

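The 10 dual-specificity phosphatase genes described here were DUSP1, DUSP3, DUSP4, DUSP5, DUSP6, DUSP7, DUSP10, DUSP11, DUSP12 and DUSP14, taken as a named list by symbol out of 13017 genes. All 10 were found in both tables and all 10 had a mean of at least 1 FPKM, as did 10925 genes in all. The list was chosen by gene family, with the difference in DUSP3 FPKM between these libraries already known, so every difference below is a description. The comparison was between 2 groups of 1 RNA-seq library each, so nothing could be tested or checked against replicates. The first library came from breast cancer cells named 468 in the labels, in which the long non-coding RNA THAP7-AS1 had been knocked down by transfection of a Smart Silencer, a pool of oligonucleotides sold for gene silencing. The second came from 468 cells with si-NC, the negative control. Both were grown in L15 medium with serum and collected after 48 h. Because the silencer appears in the treatment label of each sample, the genotype label decided the groups. The level of THAP7-AS1 is not analysed here, and the success of its knockdown was not checked.

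Enzymes of this class remove phosphate from both tyrosine and serine or threonine residues. Their best known substrates are the MAP kinases, which are switched on when a threonine and a tyrosine in the activation loop are phosphorylated together. The MAP kinase phosphatases among them carry a domain that docks onto the kinase, and several are themselves transcribed in answer to ERK signalling, so that they act as a brake on the pathway that induced them. The small atypical members lack that docking domain; DUSP3, also called VHR, is one of them and acts on ERK and JNK, while others work on RNA or on proteins outside the pathway.

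Expression is given as FPKM, fragments per kilobase of transcript scaled to the size of the library. It allows levels to be set side by side per length, but the value of a gene depends on the transcripts its fragments were assigned to and on what else the library holds. The 2 tables summed to 213442 FPKM in the knockdown library and 213888 FPKM in the control library. The depth was estimated from the lowest values of genes with a single transcript at 11100000 and 10900000 fragments. All 5 epithelial markers looked for (EPCAM, KRT8, KRT18, KRT19, CDH1) were present, with summed levels of 1729 FPKM in the knockdown library and 1632 FPKM in the control library. KRT19 made up most of that sum at 1106 against 1057 FPKM, and CDH1 alone of the 5 was lower in the knockdown library, at 12.4 against 17.1 FPKM. The 4 basal markers (KRT5, KRT14, KRT17, EGFR) summed to 406 FPKM in the knockdown library and 472 FPKM in the control library. EGFR made up most of that sum and alone of the 4 was lower in the knockdown library, at 258 against 336 FPKM. KRT5 was at 64.0 against 55.6, KRT14 at 5.94 against 3.25 and KRT17 at 77.4 against 76.9 FPKM. Of 4 luminal markers 2 were listed, GATA3 at 16.7 against 17.8 FPKM and FOXA1 at 22.8 against 20.9 FPKM. Of 4 mesenchymal or fibroblast markers 3 were listed, with sums of 3.17 and 2.45 FPKM. The endothelial markers are not analysed here, and of 3 immune markers CD68 alone was listed, at 3.30 and 3.25 FPKM.

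Promoter windows show the sequence around annotated transcription starts of the members. Which starts these cells used was not measured. RefSeq sequences on GRCh38.p14 were at hand for 7 of the 10 members, each running from 250 bases before the annotated start to 50 after it. Those of DUSP3, of the inducible DUSP1 and of DUSP7 are shown because these genes had the highest and lowest ratios among the members. Capitals mark matches on either strand to 5 motifs. The TATA box was searched as TATAAA and the CCAAT box by the letters of its name. The GC box, a site of SP factors, was searched as GGGCGG. The cyclic AMP response element (CRE), bound by CREB and ATF factors, was searched as TGACGTCA. The E-box was searched as CACGTG, and no 2 of these matches overlap in the windows shown. The windows lie on the minus strand at chr17:43778928-43779227 for DUSP3, chr5:172771146-172771445 for DUSP1 and chr3:52056522-52056821 for DUSP7.
DUSP3: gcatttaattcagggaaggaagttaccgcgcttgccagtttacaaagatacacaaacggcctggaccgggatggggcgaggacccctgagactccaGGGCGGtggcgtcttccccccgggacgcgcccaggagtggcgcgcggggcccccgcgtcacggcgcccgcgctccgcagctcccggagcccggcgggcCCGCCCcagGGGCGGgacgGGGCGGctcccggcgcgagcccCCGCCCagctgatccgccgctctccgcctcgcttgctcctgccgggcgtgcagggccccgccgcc
DUSP1: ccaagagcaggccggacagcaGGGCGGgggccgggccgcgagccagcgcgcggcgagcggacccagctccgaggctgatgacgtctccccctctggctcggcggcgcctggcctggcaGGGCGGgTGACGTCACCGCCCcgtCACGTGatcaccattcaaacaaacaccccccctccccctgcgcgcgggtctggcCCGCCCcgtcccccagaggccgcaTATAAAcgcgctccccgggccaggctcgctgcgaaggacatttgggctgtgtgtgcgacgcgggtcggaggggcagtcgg
DUSP7: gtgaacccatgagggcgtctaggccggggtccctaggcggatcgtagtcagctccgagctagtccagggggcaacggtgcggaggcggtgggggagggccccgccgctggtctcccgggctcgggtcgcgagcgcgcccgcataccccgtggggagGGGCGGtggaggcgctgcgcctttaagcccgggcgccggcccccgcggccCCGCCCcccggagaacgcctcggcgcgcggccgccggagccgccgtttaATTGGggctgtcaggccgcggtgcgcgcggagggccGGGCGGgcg

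The DUSP3 window held 5 GC boxes and no match to the other 4 motifs. In the DUSP1 window a TATA box began 30 bases before the start, and a CRE at 125 bases before it was followed directly by a GC box on the other strand and then by an E-box. That window also held 4 GC boxes in all. The DUSP7 window held 3 GC boxes and, within the transcribed part, 1 CCAAT match on the other strand. Among 35116 promoter windows of the same length in the RefSeq table, 45.0% held a GC box, 34.6% CCAAT, 11.5% the TATA box, 7.26% the E-box and 1.85% the CRE. Of the 7 members, DUSP1 alone matched the TATA box, the CRE or the E-box. These matches describe letters in a short window and say nothing of what binds there.

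**Figure D1:**
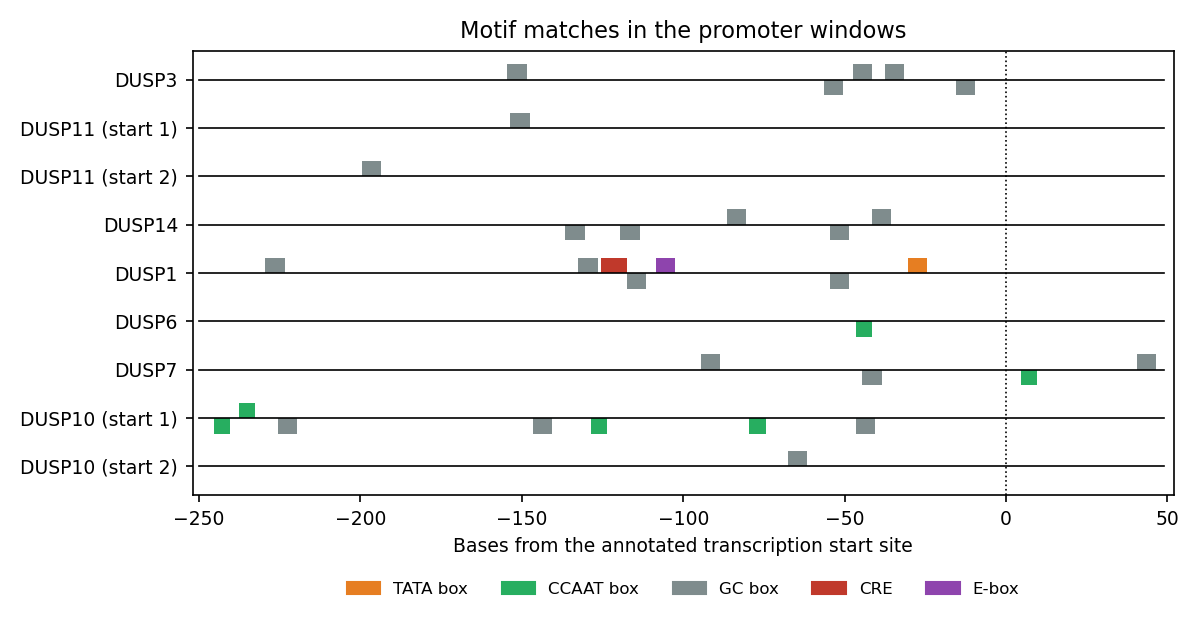
Motif matches in the RefSeq promoter windows of 7 dual-specificity phosphatase genes (DUSP10 and DUSP11 have 2 annotated starts each), by distance in bases from the annotated start at 0. Boxes above a line are on the gene's strand and boxes below it on the other strand; DUSP3 shows 5 GC boxes, and DUSP1 is the line with a CRE, an E-box and a TATA box.

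DUSP3 (ENSG00000108861.8_2, chromosome 17) was at 13.01 FPKM in the knockdown library and 3.13 FPKM in the control library. The knockdown level was thus 4.16 times the control level. In RNA from whole cultures, more cells expressing DUSP3 and more of its RNA per cell cannot be told apart. Throughout, the ratio used for ranking is log2((knockdown FPKM + 1)/(control FPKM + 1)), which understates the change of low genes; for DUSP3 it was 1.76, the 16th highest of 10925 genes. Genes with a mean of 5 to 10 FPKM, the range that holds DUSP3, had a spread of 0.22 on this scale (SD over genes, from the median absolute deviation). DUSP3 lay 8.16 such SDs from 0, but this is a spread between genes and not between cultures.

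No gene on either strand shares exons with DUSP3 in GENCODE release 29, though the annotation the authors used is not stated, and how their quantification divided fragments was not tested. It has 5 annotated transcripts of 538 to 4110 bases, and because FPKM divides by length, its value depends on which of them the fragments were assigned to. At the estimated depth its levels would correspond to about 596 fragments in the knockdown library against 141 fragments in the control library if all came from the longest transcript, and to 78 and 18 if all came from the shortest. The log2 ratio of the FPKM values without the added 1 was 2.06, with a counting error of 0.14 for the longest transcript and 0.37 for the shortest. These errors cover counting only. Whether the use of transcripts differed between the libraries was not tested.

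In level, DUSP3 stood second among the 10 members in the knockdown library, after DUSP12, and seventh in the control library. From high to low, the order in the knockdown library was DUSP12, DUSP3, DUSP11, DUSP4, DUSP5, DUSP1, DUSP14, DUSP10, DUSP7 and DUSP6. In the control library it was DUSP12, DUSP5, DUSP11, DUSP4, DUSP14, DUSP1, DUSP3, DUSP7, DUSP10 and DUSP6. With 1 library each there is no spread against which neighbours in these orders could be told apart, and DUSP3, DUSP7 and DUSP10 lay between 2.84 and 3.13 FPKM in the control library. Its share of the members' summed FPKM was 19.7% after knockdown and 5.29% in the control library. The members summed to 66.0 FPKM in the knockdown library and 59.1 FPKM in the control library. Without DUSP3, the other 9 summed to 53.0 and 56.0 FPKM. With DUSP3 the knockdown sum was the higher one, and without it the lower one.

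**Figure D2:**
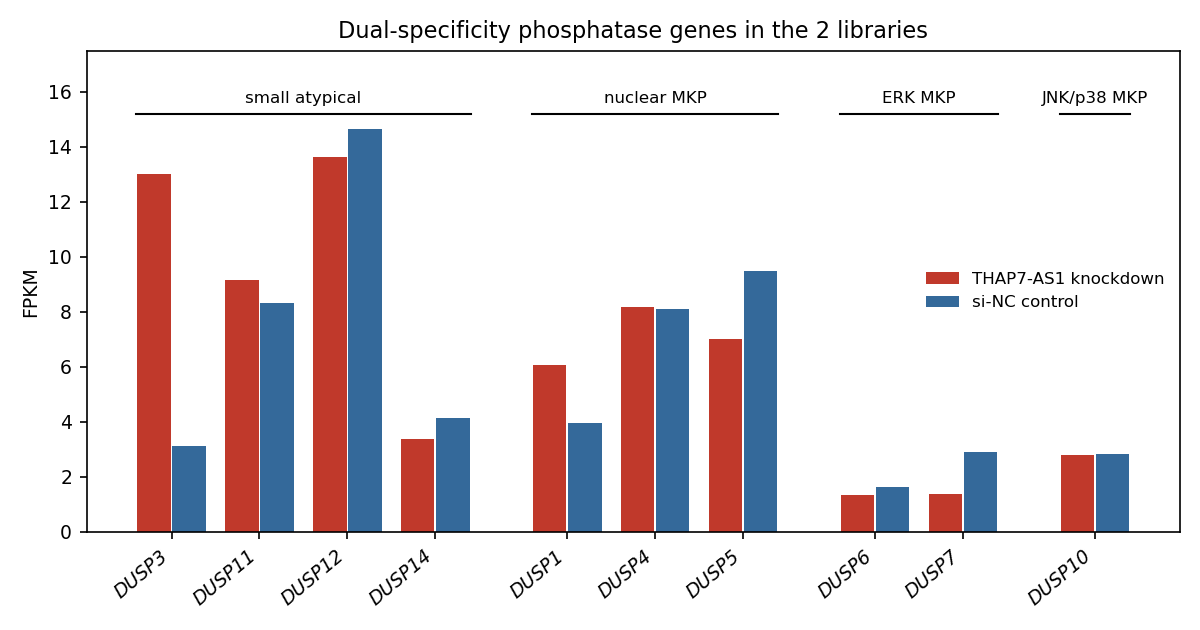
FPKM of the 10 dual-specificity phosphatase genes in the knockdown library (left bar of each pair) and the control library (right bar), 1 library each, grouped as small atypical phosphatases and as MAP kinase phosphatases (MKP) that are nuclear, act on ERK, or act on JNK and p38. DUSP3 is at 13.01 and 3.13 FPKM, while the bars of DUSP4, DUSP10, DUSP11 and DUSP12 nearly match.

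DUSP3 was the 1 of 10 members at least 2-fold apart on the FPKM + 1 scale, where 1.27% of all genes were, 0.604% of all genes being on the higher side and, at a mean of 5 to 10 FPKM, 1.35% on either side; nothing is read from that count, since the list was made around it. The other 9 members had ratios of -0.71 to 0.51 with a median of -0.10, against a median of 0.02 over all 10925 genes. Of these 9, 3 lay above 0 and 6 below. Over all genes, 46.9% lay below 0. DUSP7 was the 1 of the 9 at least 1.5-fold apart on the FPKM + 1 scale. Such a difference was shown by 5.45% of all genes in either direction and by 2.46% on the lower side. In plain FPKM, the knockdown level of DUSP1 was 1.53 times the control level.

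Its atypical relatives did not share the difference of DUSP3. DUSP11, which removes phosphates from the ends of RNA, was at 9.17 FPKM in the knockdown library and 8.32 FPKM in the control library, a ratio of 0.13. DUSP12, which carries a zinc-binding domain beside its phosphatase domain, was the most abundant member in both libraries at 13.6 and 14.6 FPKM, a ratio of -0.10. DUSP14, a small phosphatase known from mice for dampening T cell receptor signalling, was at 3.37 and 4.14 FPKM, a ratio of -0.23. They lay at 0.58, -0.48 and -1.01 SDs over genes at their level. The ratio of DUSP3 exceeded theirs by at least 1.64. In the knockdown library DUSP3 was at 0.95 times the level of DUSP12, and in the control library at 0.21 times that level.

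The inducible nuclear phosphatases went in different directions. DUSP1, an immediate early gene whose product acts mainly on p38 and JNK, was at 6.07 FPKM in the knockdown library and 3.95 FPKM in the control library, a ratio of 0.51 that lay 2.37 SDs over genes from 0. It has a single annotated transcript, and its levels correspond to about 136 and 87 fragments; its log2 FPKM ratio without the added 1 was 0.62, with a counting error of 0.20. DUSP4, which acts on ERK and JNK, was at 8.18 and 8.11 FPKM, a ratio of 0.01. DUSP5, which binds ERK in the nucleus, was at 7.03 FPKM in the knockdown library and 9.48 FPKM in the control library, a ratio of -0.38 that lay at -1.78 SDs. Together the 3 summed to 21.3 and 21.5 FPKM, so the higher DUSP1 and lower DUSP5 nearly balanced. In the control library all 3 were above DUSP3, whereas in the knockdown library all 3 were below it.

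Both cytoplasmic ERK phosphatases were lower in the knockdown library and were the least abundant members there. DUSP7 was at 1.39 FPKM in the knockdown library and 2.91 FPKM in the control library. Its ratio of -0.71 ranked 183rd lowest of 10925 genes and lay at -3.06 SDs; in plain FPKM the control level was 2.09 times the knockdown level. About 52 and 106 fragments would lie behind these values, and the log2 FPKM ratio was -1.06 with a counting error of 0.24, for the longest of its 2 transcripts. DUSP6, a feedback phosphatase widely used as a readout of ERK activity, was the lowest member in both libraries at 1.35 and 1.64 FPKM. Its ratio of -0.17 was within 1 SD, and the log2 FPKM ratio of -0.28 had a counting error of 0.24 for its longest transcript and 0.67 for its shortest. An antisense gene overlaps exons of DUSP6, and with no statement of strandedness in the sources used here their reads cannot be told apart. DUSP10, which acts on JNK and p38, was at 2.81 and 2.84 FPKM, a ratio of -0.01.

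**Figure D3:**
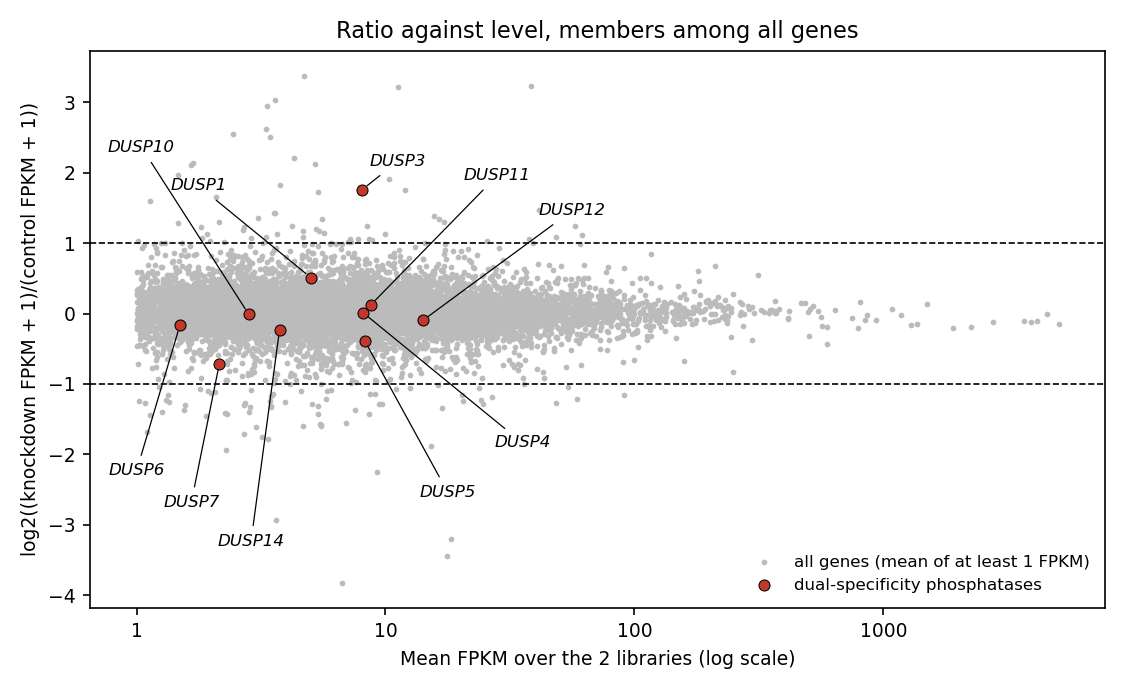
Log2 ratio of knockdown over control on the FPKM + 1 scale against the mean FPKM (log axis) for 10925 genes (grey) and the 10 dual-specificity phosphatases (red), with dashed lines at 2-fold. DUSP3 at 1.76 lies above the upper line, DUSP7 at -0.71 is the lowest member, and the others lie within the body of genes.

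The remaining DUSP and related genes were closer together. Of 13 other MAP kinase phosphatases and atypical members in the tables, 10 had a mean of at least 1 FPKM. Of these 10, 8 lay above 0 and 2 below, where 46.9% of all genes lay below 0. All 10 were under 1.5-fold apart on the FPKM + 1 scale, with ratios of -0.06 to 0.50 and a median of 0.06. On that scale 94.6% of all genes were under 1.5-fold. DUSP16, a phosphatase of JNK and p38, had the largest ratio at 7.87 FPKM in the knockdown library and 5.28 FPKM in the control library. DUSP18 followed at 1.91 and 1.23 FPKM; it shares exons with another gene. DUSP23, the most abundant of the family, was at 41.0 and 40.01 FPKM. Among 21 other phosphatases of the same class, such as the slingshot, PTP4A, CDC25 and myotubularin genes, 10 lay above 0 and 11 below. None was 1.5-fold apart, and over all genes 46.9% lay below 0. The ends were PTP4A1 at 12.2 against 17.1 FPKM and SSH3, of the slingshot family of cofilin phosphatases, at 26.6 against 18.9 FPKM.

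The MAP kinases on which these phosphatases act were then set beside them. Of 8 reported here, 5 lay above 0 and 3 below, with a median of 0.05, where 46.9% of all genes lay below 0. MAPK14, which encodes p38 alpha, was the 1 of the 8 at least 2-fold apart, where 1.27% of all genes were, at 6.67 FPKM in the knockdown library and 2.61 FPKM in the control library, a ratio of 1.09. The ERK gene MAPK3 was at 16.6 against 16.5 FPKM, above DUSP3 in both libraries. Of the JNK genes, MAPK9 was at 14.1 against 20.4 FPKM and MAPK8 at 2.46 against 2.25 FPKM. MAPK13 and MAPK11, both p38 genes, were at 12.21 against 15.45 FPKM and 2.63 against 1.65 FPKM. MAPK7 was at 4.08 against 4.26 FPKM and MAPK6 at 7.75 against 6.23 FPKM.

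Upstream of the MAP kinases, all 6 MAP kinase kinase genes measured were under 1.5-fold apart, as were 94.6% of all genes, with MAP2K3, which activates p38, at 7.84 against 5.78 FPKM. Of 18 RAS, RAF, adaptor and MAP kinase kinase kinase genes, 7 lay above 0 and 11 below. The share of all genes below 0 was 46.9%. The adaptor gene GRB2 stood highest at 30.1 against 16.4 FPKM, a ratio of 0.84. Of 8 reported DUSP3 substrates other than MAP kinases, 5 lay above 0 and 3 below, where 46.9% of all genes lay below 0. Their phosphorylation was not measured. EGFR was at 258 FPKM in the knockdown library and 336 FPKM in the control library, and ERBB2 was at 6.61 and 4.14 FPKM. Genes on the other strand overlap exons of both.

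Of the genes listed as ERK feedback genes or ERK-driven targets, more lay below 0 than above. The lists were drawn up by name, and whether each gene responds to ERK in these cells was not tested. Among 11 feedback genes other than phosphatases, 7 were below 0 with a median of -0.15; SPRY1 was the exception in size at 4.38 FPKM in the knockdown library against 2.62 FPKM in the control library, a ratio of 0.57, and SPRY4 lay lowest at 5.19 against 6.36 FPKM. Among 18 transcription targets, 13 were below 0 with a median of -0.13, where 46.9% of all genes were below 0. IER2, at 2.77 against 33.9 FPKM, was the 1 gene of this list at least 2-fold lower on the FPKM + 1 scale. Over all genes, 0.668% were. Then came ELK3 at 1.43 against 3.28, MYC at 1.94 against 3.43 and ELK1 at 21.5 against 30.1 FPKM. In plain FPKM the knockdown level of ELK3 was 0.44 times the control level, also more than 2-fold lower. A gene on the other strand overlaps exons of IER2, and another those of ELK3. As with DUSP6, their reads cannot be told apart. At the other end FOS was at 1.52 against 1.21 FPKM.

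**Figure D4:**
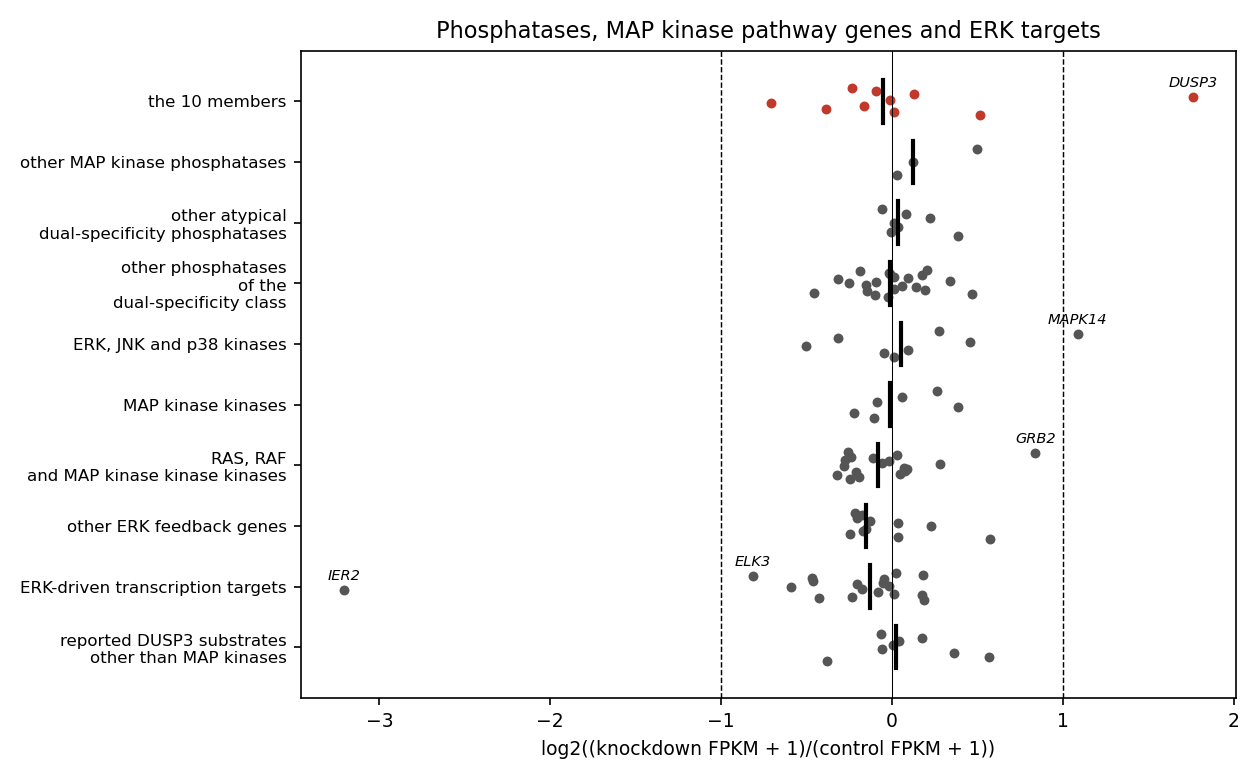
Log2 ratio of knockdown over control on the FPKM + 1 scale for the 10 members (red) and for related gene lists (grey), 1 point per gene with a mean of at least 1 FPKM, vertical bars at list medians and dashed lines at 2-fold. List medians lie between -0.15 and 0.12, and DUSP3, MAPK14 and IER2 are the points beyond 2-fold.

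The genes most like DUSP3 in their 2 levels, by distance in the plane of log2(FPKM + 1), were CS, which encodes citrate synthase, at 16.9 against 3.73 FPKM (distance 0.40), TEN1, a telomere gene, at 12.3 against 4.62 FPKM (distance 0.45) and ZNF512, a zinc finger gene, at 10.1 against 4.30 FPKM (distance 0.49). With 2 values per gene this likeness is a matter of level only. Each of these 3 genes has a same-strand neighbour with overlapping exons in GENCODE, which DUSP3 does not.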

How the data were processed

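RNA was sequenced from 1 knockdown and 1 control culture. The deposited values are FPKM, per the file headers, which are scaled by length and library size, with a table for each library. Per the submitters' processing notes, the build was hg19 and the tools included HISAT2 2.0.5, StringTie and cutadapt; annotation and strandedness are not stated. Symbols were matched by gene identifier, for 12746 of 13017 genes. GENCODE release 29 was used by identifier only, for transcript lengths and exon overlaps.

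Log2 ratios used a pseudocount of 1 FPKM, and a mean of 1 FPKM was the minimum. With 1 library per group no test was made, and genes were counted by size of difference (2-fold or 1.5-fold, on the FPKM + 1 scale). Depth was estimated from single-transcript genes, whose lowest values times length gathered near 89.7 (knockdown, 14 genes) and 91.4 (control, 10 genes), in a window set with the values in view. Named were the 10 members, up to 4 genes of each list with the largest ratios in either direction, the measured MAP kinases, of which some are not reported here, and the 3 genes nearest DUSP3. The members and lists were chosen with earlier results of these data known. Other settings changed the pseudocount, filter, scaling and fold. Scripts were tested on simulated data. Python 3.11.15, numpy 2.4.6, pandas 2.3.3 and matplotlib 3.10.9 were used.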

Additional observations from a re-analysis of the deposited data

How the results depend on the processing

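Of 189 values of 27 results under other settings, 171 stayed within the spread over genes, or within 1.5 times for counts. The other 18 moved further. The 171 include ratios of single genes that a filter could not change. Medians were judged against the spread over single genes, 0.21, which is wide for a median. The count of 171 is therefore no measure of robustness. A change of sign was looked for only where the main ratio was 2-fold, which held for DUSP3 alone, and 0 were found. A pseudocount or filter cannot change that sign, and a filter leaves the ratio of any gene it keeps as it was. Signs of some values near 0 did change. The ratio of DUSP4 went from 0.01 to -0.004 when centred on the median. It was also -0.004 when rescaled without the 100 most abundant genes. The count of members above 0 therefore depends on the scaling. Some medians changed sign too. At a mean of at least 5 FPKM the members' median went from -0.05 to 0.07. That of the ERK, JNK and p38 kinases went from 0.05 to -0.15. With a pseudocount of 0.1 FPKM the ratio of DUSP3 was 2.02 and that of DUSP7 -1.01, so 2 members were at least 2-fold apart, and 140 genes were higher and 126 lower. With a pseudocount of 5 FPKM, DUSP3 was at 1.15, DUSP7 at -0.31 and the median of the cytoplasmic ERK phosphatases at -0.19, and 19 genes were higher and 14 lower. With a mean of at least 5 FPKM, 31 genes were higher and 36 lower, and the median of the other MAP kinase phosphatases was 0.50, from DUSP16 alone. At 1.5-fold, 2 members, 326 higher and 269 lower genes passed; at 3-fold, 20 and 15 genes. A larger pseudocount brings the ratios of low genes nearer 0 by construction. No scaling moved a member's ratio beyond the spread. Taking the longest transcripts, the counting error at the estimated depth was largest for DUSP7 and DUSP6, at 0.24 each; taking the shortest, it was largest for DUSP6 at 0.67 and DUSP10 at 0.41. No paired analysis was possible because there is 1 library per group, and for the same reason no replicate could be left out.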
